A study of Danio rerio with 4 samples.

Results

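Cytosolic ribosomal protein genes encode the proteins of the ribosomes that translate nuclear mRNA. The small subunit reads the mRNA and the large subunit joins the amino acids, and each subunit is built from its proteins and ribosomal RNA in the nucleolus and cytoplasm. The mRNAs of these genes are among the most abundant in growing cells. In zebrafish and in people, loss of single ribosomal protein genes is known for defects of red blood cells and for activation of p53.

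The genes were taken from the array's RefSeq accessions by symbol: rps or rpl followed by a digit, together with rpsa, rplp0, rplp1 and rplp2. Kinases of the rps6k family and mitochondrial ribosomal proteins were left out. This gave 77 genes on 104 probes, 34 of the small and 43 of the large subunit, out of 11668 genes with a symbol. All 104 probes were well above background in both colours on all 4 arrays, and all 77 genes are among the 10206 genes kept for testing. The rule itself uses symbols and no measured values. The members, and rps18, rpsa and rpl22 among them, were nevertheless chosen with earlier results of these data known. The paralogue rplp2b was outside the rule, and its log2 ratio had a limma adjusted p = 0.930 at 24 hours post fertilization (hpf) and 0.0655 at 12 hpf.

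The study set whole zebrafish embryos with a morpholino against Bad, a BH3-only protein of the Bcl-2 family that promotes cell death, against wild-type embryos. The groups were morphants at 24 hpf and at 12 hpf, injected at the 1-cell stage and labelled as Bad-deficient, and wild-type embryos of both ages, labelled as controls. Each age had 2 biological replicates of 200 pooled embryos per group. Each replicate was hybridized to its own 2-colour array, morphant RNA in Cy5 and wild-type RNA in Cy3. The labels give no strain, no control injection, no exchange of dyes and no type of morpholino (blocking translation or splicing). Morpholino, injection and dye therefore cannot be told apart within an age.

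The median spot signal was between 73 and 136 at 24 hpf and between 52 and 92 at 12 hpf over both colours, over local backgrounds of 29 to 49. Values are log2 ratios of morphant over wild type after background correction and loess normalization within each array, with SD over n = 2 arrays. A gene is read from its brightest probe, and a change is called at a limma adjusted p under 0.05 over all 28320 kept probes. The number of arrays limits the precision, and p-values measure only the spread between these arrays. In whole embryos, fewer cells of a type and less RNA per cell cannot be told apart. The probe for badb, taken here as the targeted gene although the labels say only Bad, read −0.42 and −0.20 at 24 hpf and −0.30 and −0.20 at 12 hpf. Of 8 marker genes of muscle, blood and lens listed as late, 7 were higher in morphants at 24 hpf, beside 12.1% of all genes. Of 7 early mesoderm and ventral genes 4 were lower, beside 14.1% of all genes. At 12 hpf 1 of those late genes was lower, and 4 of the early genes were higher and 1 lower. Over all genes 12.4% were higher and 10.9% lower at 12 hpf. In wild type 7 of the 8 late genes were higher at 24 than at 12 hpf, and all 7 early genes were lower. Over all genes those shares were 34.6% and 40.2%. The part of embryo stage in the ribosomal protein ratios was not tested.

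Read from their brightest probes, ribosomal protein mRNAs that passed the test were nearly all higher in the morphants, each by a small amount. At 24 hpf 32 of 77 rose, 2 fell and 43 did not pass the test, where the calls over all genes were 12.1% higher and 14.1% lower. At 12 hpf 33 rose, 1 fell and 43 did not pass, where the calls over all genes were 12.4% higher and 10.9% lower. The median log2 ratio of the 77 genes was 0.16 at 24 hpf, beside −0.0028 for all genes, and 0.20 at 12 hpf, beside −0.00071. Among the genes that rose the median was 0.34 at 24 hpf (1.26-fold) and 0.37 at 12 hpf (1.29-fold).

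The counts rest on the background correction and the loess curve, while the sign of the median did not. With the scanner software's processed signals limma called 0 of the 77 genes at 24 hpf and 1 at 12 hpf (19 and 27 at an unadjusted p under 0.05). Over all kept probes it then called 15 and 2181, against 5973 and 6103 as reported. The median of the 77 genes relative to all genes was 0.083 and 0.12, against 0.18 and 0.21 as reported. Plain background subtraction called 0 and 2 of the 77 genes, and 0 and 1032 of all kept probes. Under neither processing did the 77 genes have a larger share of calls than all kept probes. When arrays were median-centred without a loess curve, the median of all genes itself moved to 0.27 at 24 hpf and 0.29 at 12 hpf. The 77 genes then lay 0.72 and 0.68 above it, with 0 calls at 24 hpf (73 at an unadjusted p under 0.05) and 31 at 12 hpf. Over all kept probes the calls were 1 at 24 hpf and 334 at 12 hpf. Without 24 hpf replicate 1 the 24 hpf calls fell to 12, without 24 hpf replicate 2 to 21, and without 12 hpf replicate 1 the 12 hpf calls fell to 19. The leave-one-out fits take the lone array to vary as the other age does.

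The shift was seen on each array. At 24 hpf 69 and 61 of the 77 genes had a positive log2 ratio on replicates 1 and 2, with medians of 0.22 and 0.13. At 12 hpf 70 and 68 had one, with medians of 0.23 and 0.19. On all 4 arrays 53 genes were positive and 2 were negative. Small-subunit genes had a median 0.086 and 0.022 above that of large-subunit genes on the 24 hpf arrays, and 0.0097 and 0.041 above it on the 12 hpf arrays. The difference between subunits was thus positive on 4 of 4 arrays, and it was not tested, since genes of 1 array are not replicates. Among the members the SD of the mean ratios was 0.20 at 24 hpf and 0.18 at 12 hpf. By calls, 16 of 34 small-subunit genes rose and 0 fell at 24 hpf, with 20 past an unadjusted p under 0.05. Of 43 large-subunit genes 16 rose and 2 fell, with 22 past an unadjusted p under 0.05 in either direction. The risen shares were 47.1% (small) and 37.2% (large), beside 12.1% of all genes. At 12 hpf 16 small-subunit genes rose and 0 fell, with 24 past an unadjusted p under 0.05. Of the large-subunit genes 17 rose and 1 fell, with 28 past an unadjusted p under 0.05 in either direction. The risen shares were then 47.1% (small) and 39.5% (large), beside 12.4% of all genes.

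**Figure D1:**
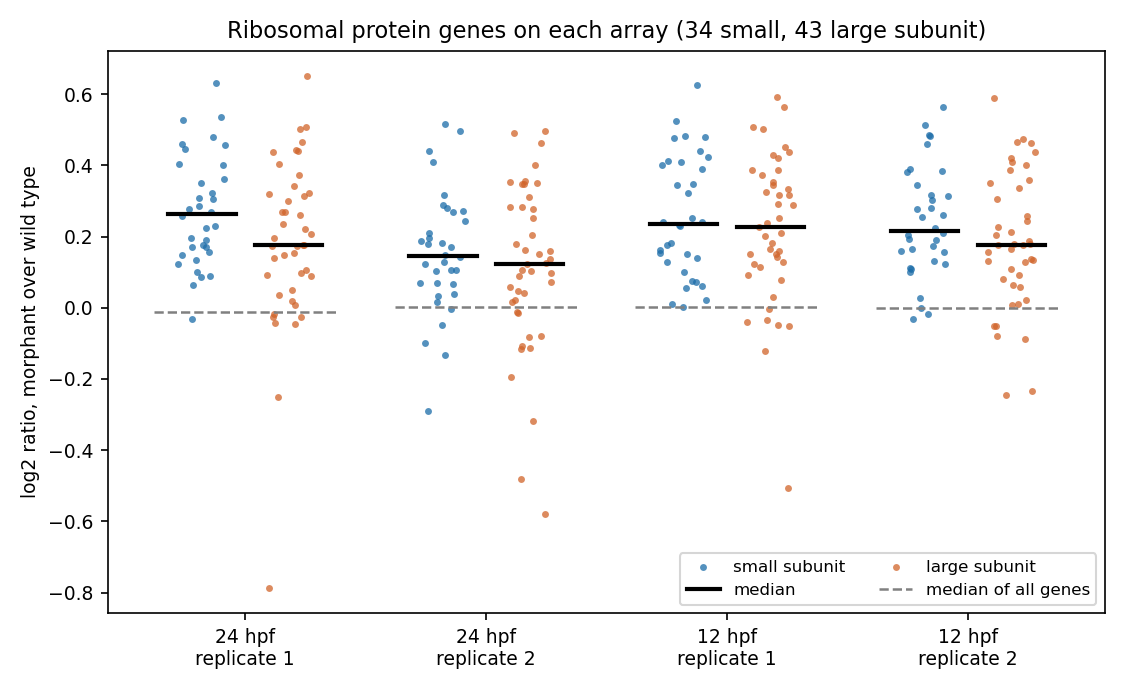
Log2 ratio of morphant over wild type (vertical axis) of each ribosomal protein gene on each array, small subunit left and large subunit right, with black bars at the medians and a dashed line at the median of all genes. On each array most points lie above the dashed line, with 69 and 61 of 77 positive at 24 hpf and 70 and 68 at 12 hpf.

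These mRNAs lie at the bright end of the arrays, where a loess curve has few other genes. Of the 77 genes 73 were in the brightest 10% (1020 genes), and 43 of the 102 genes of the brightest 1% were ribosomal protein genes. The other 947 genes of the brightest 10% had a median of 0.010 at 24 hpf, with 17.3% called higher, and 0.011 at 12 hpf, with 15.9% called higher. The other 59 genes of the brightest 1% had a median of 0.046 at 24 hpf, with 25.4% called higher, and 0.087 at 12 hpf, with 32.2% called higher, beside 41.6% and 42.9% of the ribosomal protein genes. With the ribosomal protein probes given no weight in the loess curve, the median of the 77 genes relative to all genes was 0.20 at 24 hpf and 0.23 at 12 hpf. With processed signals the other genes of the brightest 1% lay at −0.11 and −0.061 relative to all genes, and with median centring at 0.62 and 0.63.

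**Figure D2:**
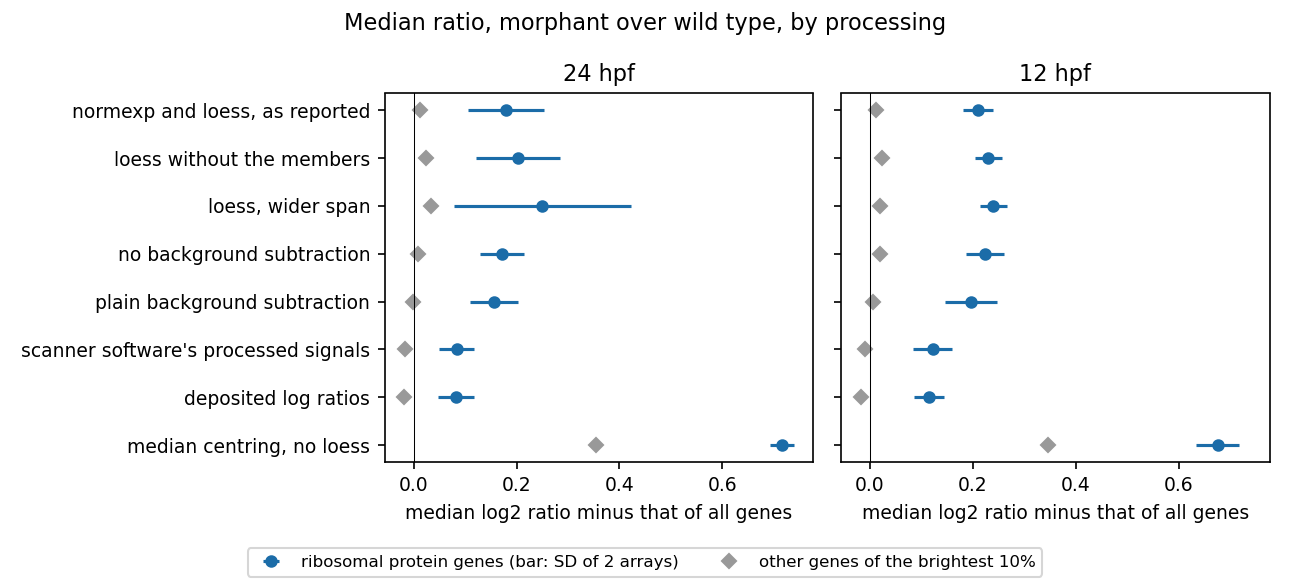
Median log2 ratio of morphant over wild type minus that of all genes (horizontal axis), for the 77 ribosomal protein genes (circles, bars SD of 2 arrays) and the other genes of the brightest 10% (diamonds), under 8 ways of processing, at 24 hpf (left) and 12 hpf (right). The circles stay above 0 throughout, between 0.082 and 0.72 at 24 hpf and between 0.12 and 0.68 at 12 hpf.

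Among small-subunit genes rps18, whose protein sits in the head of the subunit near the site of the peptidyl tRNA, was raised at both ages. The 24 hpf arrays gave log2 ratios of 0.53 and 0.44, and those of 12 hpf gave 0.63 and 0.56. All 4 values were positive and each pair lay close together. The mean was 0.48 ± 0.06 at 24 hpf (1.40-fold, limma adjusted p = 0.00113) and 0.59 ± 0.04 at 12 hpf (1.51-fold, adjusted p = 0.000334). A second rps18 probe gave 0.33 at 24 hpf and 0.38 at 12 hpf.

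The gene rpsa encodes a protein on the back of the small subunit, also known as a laminin-binding protein. It read 0.40 and 0.27 at 24 hpf and 0.53 and 0.49 at 12 hpf, so the morphant was the higher channel on 4 of 4 arrays. The mean was 0.34 ± 0.09 at 24 hpf (adjusted p = 0.0071). It was 0.51 ± 0.03 at 12 hpf (adjusted p = 0.000889). With 24 hpf replicate 1 left out, rpsa no longer passed at 24 hpf.

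The other small-subunit genes with the largest rises were rps12 and rps3 at 24 hpf and rps27a at 12 hpf. For rps12 the ratio was 0.63 and 0.50 at 24 hpf and 0.42 and 0.46 at 12 hpf, a rise at both ages (limma adjusted p = 0.000633 and 0.0019). The gene rps27a, which encodes ubiquitin fused to a ribosomal protein, read 0.46 and 0.29 at 24 hpf and 0.48 and 0.51 at 12 hpf and rose at both (adjusted p = 0.00521 and 0.00122). Further rises at both ages were those of rps14, the gene linked to the anaemia of the 5q- syndrome in people, with means of 0.44 and 0.48, and rps6, whose protein is the phosphorylation target of S6 kinases, with 0.36 and 0.40.

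In the large subunit rpl22 rose at both ages and its paralogue rpl22l1 fell at 24 hpf. Their proteins bind RNA outside the ribosome as well, and in zebrafish blood formation they are known for opposing roles. The rpl22 ratio was 0.65 and 0.50 at 24 hpf and 0.57 and 0.42 at 12 hpf, all above 0 (0.57 ± 0.11, limma adjusted p = 0.000808, and 0.49 ± 0.10, adjusted p = 0.00159). The rpl22l1 ratio was −0.79 and −0.58 at 24 hpf and −0.0034 and −0.23 at 12 hpf. At 24 hpf rpl22l1 fell by 0.68 ± 0.15 (1.60-fold, adjusted p = 0.000633), and at 12 hpf it did not pass (−0.12 ± 0.16, adjusted p = 0.321). A second rpl22l1 probe read −0.59 and −0.62 at 24 hpf and −0.047 and −0.061 at 12 hpf, as the first did. After median centring the 24 hpf values were 1.38 for rpl22 and 0.075 for rpl22l1, where all genes had a median of 0.27, so rpl22l1 stayed 0.19 below the median of all genes although its own sign turned. With processed signals they were 0.48 (adjusted p = 0.0768) and −0.81 (adjusted p = 0.0633).

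**Figure D3:**
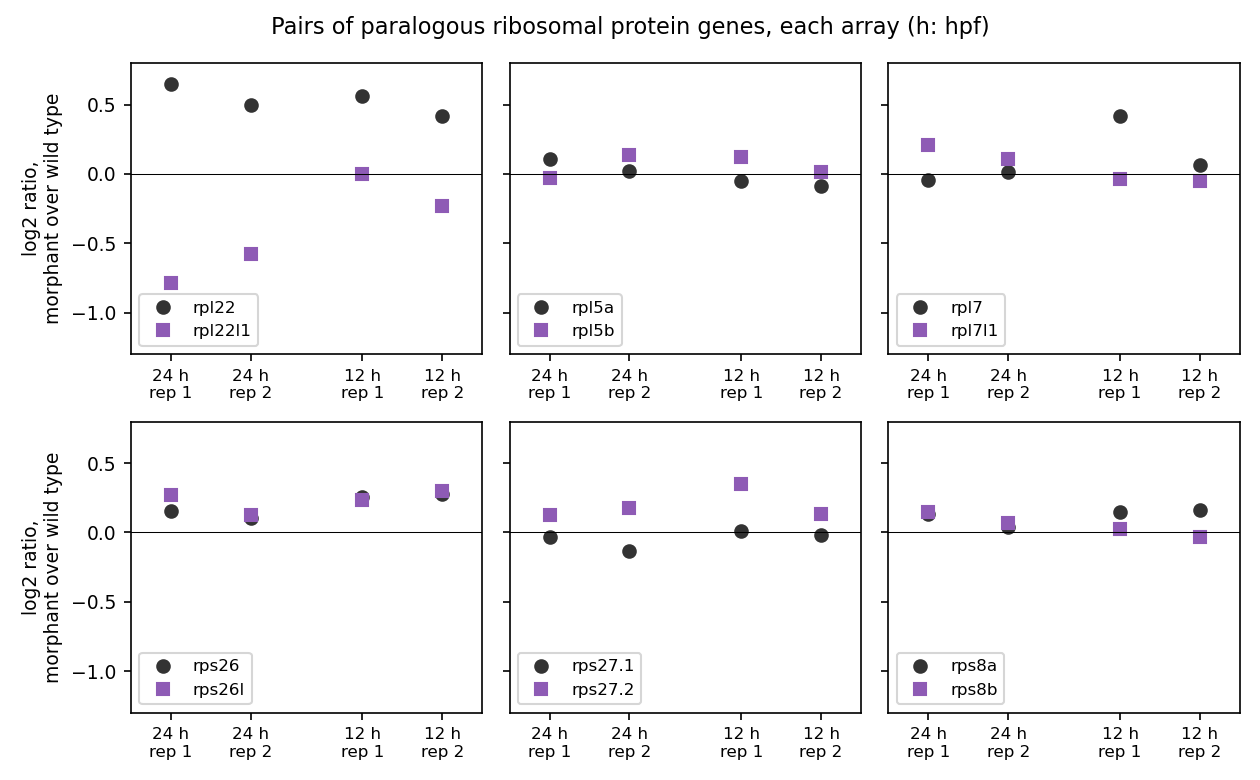
Log2 ratio of morphant over wild type (vertical axis) on each array for 6 pairs of paralogous ribosomal protein genes, 24 hpf left of 12 hpf, circles and squares for the 2 genes of a pair. At 24 hpf rpl22 (0.65 and 0.50) and rpl22l1 (−0.79 and −0.58) do not overlap. Nor do rpl7 and rpl7l1, or rps27.1 and rps27.2, at that age, though they lie closer together.

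In the other 5 pairs shown by the symbols the paralogues lay closer together. The genes rps26 and rps26l had means of 0.13 and 0.20 at 24 hpf, neither past the test, and 0.27 each at 12 hpf, where both rose (adjusted p = 0.0154 and 0.02). The pair rps8a and rps8b had means of 0.086 and 0.11 at 24 hpf and 0.16 and −0.0053 at 12 hpf, with no call from the brightest probes. The other rps8a probes read 0.28 and 0.20 at 24 hpf (adjusted p = 0.0199 and 0.0929). At 12 hpf they read 0.38 and 0.28, both past the test (adjusted p = 0.00532 and 0.026). The rps8b probe was dim, with a mean log2 brightness of 6.9 beside 16.0 for the brightest rps8a probe. Of rps27.1 and rps27.2, only rps27.2 passed, at 12 hpf (0.24 ± 0.15, adjusted p = 0.0403), where rps27.1 read −0.0035. The gene rpl7 had −0.016 at 24 hpf and 0.24 at 12 hpf, and its paralogue rpl7l1 had 0.16 and −0.045, none of them past the test. A second, dimmer rpl7l1 probe read 0.29 at 24 hpf and passed (adjusted p = 0.0169), with 0.033 at 12 hpf (adjusted p = 0.773). The genes rpl5a and rpl5b had 0.065 and 0.056 at 24 hpf and −0.068 and 0.067 at 12 hpf, with no call. Differences within a pair were not tested, and the files do not say whether probes of near-identical paralogues share signal.

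By brightest probe, the remaining large-subunit genes with the largest rises were rpl36 and rpl29 at 24 hpf and rpl27a and rpl35a at 12 hpf. The rpl36 ratio was 0.50 and 0.49 at 24 hpf and 0.39 and 0.35 at 12 hpf (adjusted p = 0.000871 and 0.00348), and 2 dimmer probes read higher at 12 hpf, at 1.04 and 1.07. The rpl29 ratio was 0.51 and 0.40 at 24 hpf and 0.50 and 0.13 at 12 hpf, with the wider spread at 12 hpf. For rpl27a it was 0.44 and 0.28 at 24 hpf and 0.59 and 0.59 at 12 hpf, a rise of 1.51-fold at 12 hpf (adjusted p = 0.000434). For rpl35a it was 0.44 and 0.35 at 24 hpf and 0.51 and 0.47 at 12 hpf, above 0 on 4 of 4 arrays. By brightest probe, rps18 and rpl27a were past 1.5-fold at 12 hpf and 0 of the 77 genes at 24 hpf. The 2 dimmer rpl36 probes were also past it at 12 hpf (limma adjusted p = 0.000137 and 0.000247).

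Genes with known roles in disease or outside the ribosome varied. Of 9 genes chosen from those mutated in Diamond-Blackfan anaemia in people, 5 rose at 24 hpf and 7 at 12 hpf. Beside them, 41.6% and 42.9% of all 77 members and 12.1% and 12.4% of all genes rose. None of the 9 fell at either age, but the list does not hold every member mutated in that disease. The members called lower, rpl31 at 12 hpf and rpl22l1 and rpl3 at 24 hpf, are not among the 9 chosen. That does not mean that they are unlinked to the disease, so the absence of falls depends on the choice. Nothing particular to these 9 genes is read from these counts. The gene rps19, the one most often mutated in that disease, read 0.10 and 0.15 at 24 hpf and 0.48 and 0.39 at 12 hpf, and passed at 12 hpf only (adjusted p = 0.199 and 0.0018); its difference between the ages did not pass (adjusted p = 0.0645). The genes rps7 and rps24 rose at both ages, with means of 0.27 and 0.32 at 24 hpf and 0.35 and 0.38 at 12 hpf. In the 5S particle, whose proteins bind Mdm2 and so restrain the breakdown of p53, rpl11 rose at both ages (0.40 and 0.35 at 24 hpf, 0.35 and 0.31 at 12 hpf), while rpl5a and rpl5b did not pass. The stalk genes, whose proteins recruit elongation factors, had rplp2 alone past the test, at 24 hpf (0.24 ± 0.11, adjusted p = 0.0326), with rplp0 at 0.082 and rplp1 at 0.037. The gene rpl38, known in mouse for the translation of Hox mRNAs, had 0.20 ± 0.22 at 24 hpf and 0.26 ± 0.10 at 12 hpf, past the test at neither.

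The 2 ages ranked the members alike in part. Across the 77 genes the correlation between arrays was 0.761 at 24 hpf and 0.843 at 12 hpf, and 0.636 between the 2 ages' means. Over all genes these correlations were 0.759, 0.771 and 0.383. They are a description over genes that share their arrays. At both ages 23 genes were called higher, 9 at 24 hpf alone, 10 at 12 hpf alone, and 32 passed at neither age in either direction. The ratio itself differed between the ages for 4 genes, 2 higher at 24 hpf and 2 lower, beside 4% higher and 6.84% lower over all genes. Leaving out 12 hpf replicate 1 or 24 hpf replicate 1 took this count to 0, and leaving out 24 hpf replicate 2 took it to 1.

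**Figure D4:**
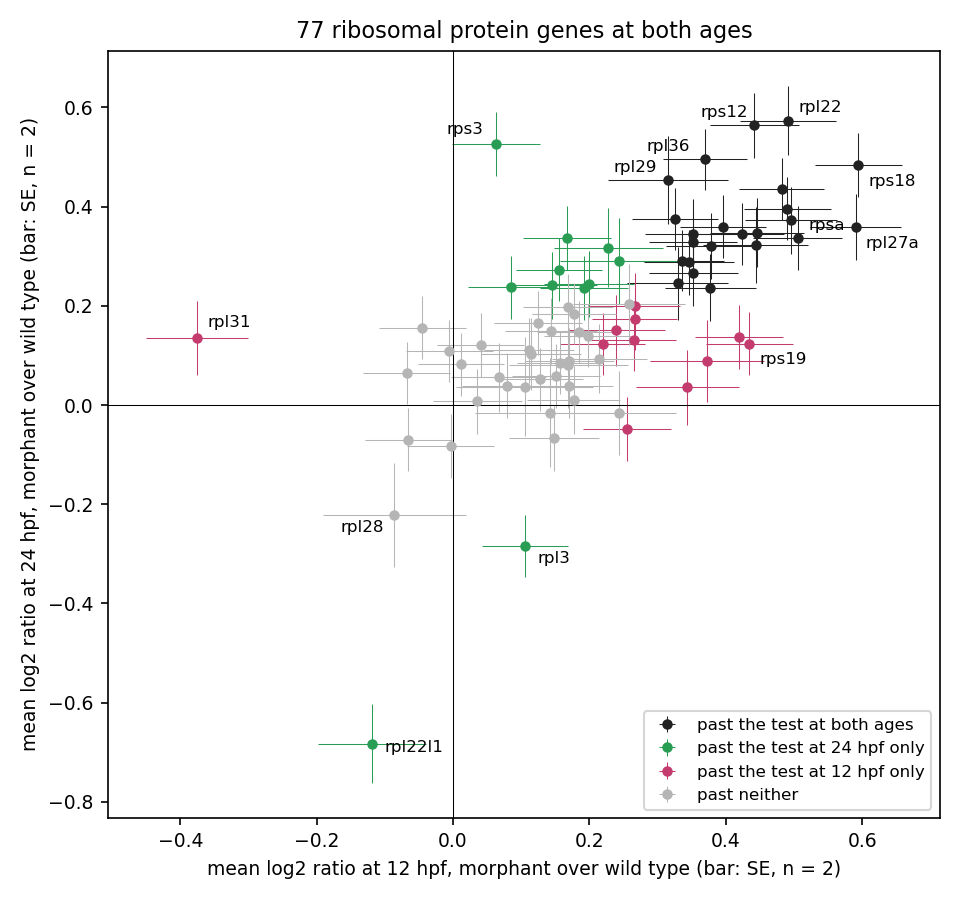
Mean log2 ratio of morphant over wild type at 24 hpf (vertical axis) against 12 hpf (horizontal axis) for the 77 genes, coloured by the ages at which the gene passed the test. Bars are limma's SE of each mean of 2 arrays. Its spread is estimated from both ages together and drawn toward that of all kept probes. The 23 genes risen at both ages fill the upper right, and rpl22l1, rpl3, rpl31 and rps3 lie away from the others.

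The gene rpl31, whose protein lies at the rim of the exit tunnel, read 0.15 and 0.12 at 24 hpf and −0.51 and −0.24 at 12 hpf. By brightest probe, it was the one member that fell at 12 hpf (−0.38 ± 0.19, adjusted p = 0.00761), and its second probe read −0.58 and −0.27 there. The gene was dim for a member, with a mean log2 brightness of 9.1 and 8.9 on these probes, beside 16.2 for rps18. Without 12 hpf replicate 1 its 12 hpf value was −0.24 and did not pass (adjusted p = 0.134). The gene rps3, whose protein lines the entry of the mRNA channel, read 0.54 and 0.51 at 24 hpf and 0.0025 and 0.12 at 12 hpf. It was called higher at 24 hpf only. The gene rpl3, whose protein reaches toward the catalytic centre of the large subunit, read −0.25 and −0.32 at 24 hpf and 0.077 and 0.13 at 12 hpf. It was called lower at 24 hpf (−0.28 ± 0.05, adjusted p = 0.013), but the call was not stable. It did not pass without 24 hpf replicate 1 (−0.32, adjusted p = 0.0677) or replicate 2 (−0.25, adjusted p = 0.141), with a loess span of 0.7 (adjusted p = 0.0944) or with an offset of 10 (adjusted p = 0.0552). With median centring its value was 0.57, which is 0.31 above the median of all genes.

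For 22 genes more than 1 probe was kept. The sign of the mean ratio differed between probes for 5 of these genes at 24 hpf and for 4 at 12 hpf. The median range between a gene's probes was 0.14 and 0.15, close in size to the members' median ratios of 0.16 and 0.20. Probes of the same gene never gave calls in opposite directions at 12 hpf, and did so for 1 gene at 24 hpf, rpl18. Its brightest probe read 0.32 and the other −0.23. At 12 hpf the brightest rpl18 probe read 0.23 and did not pass (limma adjusted p = 0.0718). The other read −0.22 there and passed as lower (adjusted p = 0.0348). This gene was chosen for mention after its values were seen.

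Of 74 genes listed by symbol for building the ribosome (ribosome biogenesis) 12 rose and 5 fell at 24 hpf (median 0.045). These shares are 16.2% and 6.76%, beside 12.1% and 14.1% of all genes. At 12 hpf 5 rose and 10 fell (median −0.031), which is 6.76% and 13.5% beside 12.4% and 10.9% of all genes. The share fallen at 24 hpf and the share risen at 12 hpf were thus below those of all genes. The other shares lay somewhat above, and no difference in shares was tested. The list includes nog1, a symbol that in zebrafish stands for noggin, which does not build ribosomes. It was called lower at both ages and is counted among the falls. The gene sbds, which frees the large subunit for joining, read −0.60 and −0.39 at 24 hpf and −0.78 and −0.74 at 12 hpf and fell at both ages. The RNA polymerase I gene polr1b had −0.19 ± 0.14 at 24 hpf and fell at 12 hpf (−0.63 ± 0.11), and the gene polr1d, for a subunit shared by polymerases I and III, rose at 24 hpf (0.49 ± 0.04) with 0.17 ± 0.12 at 12 hpf. The box C/D protein gene nop58 fell at both ages (−0.24 and −0.41), but with median centring, which moves all genes up as given above, it was 0.32 and 0.23, close to the median of all genes (0.046 above it and 0.06 below it). The chaperone gene tsr2, whose yeast form carries Rps26, fell at 12 hpf (−0.48 ± 0.0008), and with median centring it read 0.047, which is 0.24 below the median of all genes under that scaling.

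Of 61 mitochondrial ribosomal protein genes 17 rose and 0 fell at 24 hpf, with 22 past an unadjusted p under 0.05, which is 27.9% risen beside 12.1% of all genes. At 12 hpf 8 rose and 6 fell, and those shares of 13.1% and 9.84% were about those of all genes (12.4% and 10.9%). Their median was 0.11 at 24 hpf and −0.073 at 12 hpf. The gene mrpl20 read 0.75 and 0.78 at 24 hpf and 0.95 and 0.75 at 12 hpf, the largest change of that list at both ages. Among 14 genes of proteins that work on the ribosome 6 rose and 1 fell at 24 hpf (42.9% and 7.14%), and 5 rose at 12 hpf (35.7%). The nascent-chain binding partners naca and btf3 rose at both ages, with 0.48 and 0.35 at 24 hpf and 0.44 and 0.23 at 12 hpf. So did the elongation factor genes eef1b2 (0.49 and 0.22) and eef1g (0.39 and 0.35). The poly(A)-binding pabpc1b fell at 24 hpf (−0.40 ± 0.12), and with median centring it read 0.023, which is 0.25 below the median of all genes under that scaling. With processed signals, 81 of the 87 calls of named genes, members included, no longer passed.

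Whether ribosomal protein mRNA went up or down between the ages has no settled direction in these arrays. After quantile scaling of the arrays' mean brightness, 29 of 77 genes were higher and 1 lower at 24 than at 12 hpf in morphants, beside 35% higher and 42.2% lower over all genes. In wild type 30 were higher and 1 lower, beside 34.6% and 40.2% over all genes. With processed signals scaled to each array's 75th percentile, 1 was higher and 57 lower in morphants and 1 higher and 33 lower in wild type. No share over all genes was counted under that scaling. The median of all kept probes was −0.26 in morphants and −0.25 in wild type by it, and the 77 genes lay below that. By quantile scaling it was −0.11 and −0.093, and the 77 genes lay above it. Under both scalings the 77 genes lay above the biogenesis genes, whose median change was −0.54 in morphants and −0.58 in wild type by the first and −1.05 and −1.16 by the second, beside 0.093 and 0.15, and −0.41 and −0.32, for the ribosomal protein genes. By the first scaling rps10 was higher at 24 hpf by 0.79 in morphants and 0.95 in wild type, and by 0.14 and 0.38 by the second. For rplp1 the values were 0.86 in morphants and 0.93 in wild type by the first and 0.23 and 0.37 by the second.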

How the data were processed

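Total RNA of pooled embryos was labelled and hybridized by the authors to 2-colour Agilent arrays. Per the submitters' processing notes and the file headers, Agilent Feature Extraction 10.5.1.1 read the scans. The deposited scanner files hold spot and background intensity values, not normalized, the software's processed intensity signals and well-above-background flags. The deposited value table holds log10 ratios of Cy5 over Cy3 that are identical, spot by spot, to the log ratios in the scanner files (largest difference 0).

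Median spot signals were corrected with normexp (offset 50) against median local background, and log2 ratios were normalized by loess (span 0.3) with control and outlier spots at weight 0. Spots were averaged per probe. Kept were probes that, for either age, had a colour well above background on both arrays. Symbols came from RefSeq accessions matched to a reference table, for 16770 of 19210 probes. The fit used limma 3.58.1 (R 4.3.3) on the 4 arrays together, 1 mean for each age (2 residual and 7.5 prior degrees of freedom). Tests were two-sided, with Benjamini-Hochberg adjustment over all kept probes. Levels at 24 against 12 hpf were fitted per colour after Aquantile normalization, which scales the arrays' mean brightness. The procedure was also run on simulated data, with changed probes drawn at random at any brightness and in both directions. That setting does not test a set of genes crowded at the bright end that shifts together.

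Members, lists and the rule for named genes were chosen with earlier results of these data known. Named were the 3 genes picked out above, the largest changes per age (up to 6 rises and 4 falls), every gene whose ratio differed between ages, paralogue pairs, genes with known roles, up to 4 members of each related list with the largest called ratios, the largest changes with age in wild type and the targeted gene. Replicates 1 and 2 of the ages were not paired: the deviations of same-numbered arrays had a correlation of −0.041 over 28304 probes. Alternatives covered the background correction, the normalization, the filter, the choice of probe, the variance model, each array left out and a replicate block. Genomic positions and sequences are not used here. The single-gene results of 2 named genes are not reported here.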

Additional observations from a re-analysis of the deposited data

Results flagged for a closer look

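The morphant effect differed between the ages for 4 ribosomal protein genes, by limma's test of the 24 hpf mean minus the 12 hpf mean over all kept probes. That is 2.6% of the 77 genes higher and 2.6% lower, below the 4% and 6.84% of all genes. The rpl22l1 difference was −0.564 (adjusted p = 0.0177) and the rpl3 difference −0.389 (adjusted p = 0.0299), both lower at 24 hpf. The rpl31 difference was 0.511 (adjusted p = 0.021) and the rps3 difference 0.463 (adjusted p = 0.0173), both higher at 24 hpf. The 4 genes were picked by this difference, so the separation of their values between the ages adds nothing to the test. With the scanner software's processed signals the differences were −0.583, −0.401, 0.596 and 0.453 in the same order, and with median centring −0.523, −0.321, 0.488 and 0.487, with no call in either.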

How the results depend on the processing

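The members' median relative to all genes stayed above 0 in all 18 alternatives run, but the counts did not hold. The changes of the variance model and the replicate block could not move this median. Leaving out an array could move it only at that array's age. The median was 0.0833 at 24 hpf and 0.122 at 12 hpf with processed signals, and 0.0821 and 0.115 with deposited log ratios. It was 0.716 and 0.676 with median centring and, at 12 hpf, 0.24 with a loess span of 0.7. The subunit difference at 12 hpf was 0.0577 with processed signals or deposited ratios and 0.0661 when all probes of a gene were averaged. Of 34 called members at each age, processed signals left 0 at 24 hpf and 1 at 12 hpf, deposited ratios 0 and 2, plain subtraction (chosen after seeing the data) 0 and 2, median centring 0 at 24 hpf, and an offset of 10 left 18 at 24 hpf. The 4 differences between ages became 0 in each of these, against 7 with an intensity trend. Leaving out single arrays gave 12 to 34 calls at 24 hpf, 19 to 38 at 12 hpf, 0 to 4 for the difference, 22 to 26 for morphant and 20 to 29 for wild type levels with age, medians of 0.127 to 0.232 at 24 hpf and 0.19 to 0.231 at 12 hpf, and subunit differences of 0.0218 to 0.0862 and 0.00967 to 0.0407. Without 24 hpf replicate 2 the wild-type count was 20. Levels with age turned direction with processed signals scaled to the 75th percentile, at 58 calls in morphants and 34 in wild type, nearly all lower. The median change of all kept probes was −0.26 and −0.25 there. Median centring moves the median of all genes to 0.269 at 24 hpf and 0.289 at 12 hpf, and the sign turned there for rpl22l1 (0.075), rpl3 (0.57), nop58 (0.32) and pabpc1b (0.023) at 24 hpf, and tsr2 (0.047), nop58 (0.23), nog1 (0.12), mrps22 (0.16), mrps6 (0.31), hbae3 (0.0902) and badb (0.14) at 12 hpf. Of these, rpl3, mrps6 and, at 24 hpf, nop58 also lay above the median of all genes, and the others stayed below it. The cause was not tested. The replicate block gave 34, 34 and 4 calls for the ratios at 24 hpf, at 12 hpf and their difference, and 27 and 28 for morphant and wild type with age, and changed no call of a named gene. Over all probes, 5973 calls at 24 hpf became 15, and 6103 at 12 hpf became 2181, with processed signals. With plain subtraction they became 0 and 1032.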
